A study of Mus musculus with 4 samples.

Results

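The neurons described here are mature olfactory sensory neurons of the mouse that had chosen 1 of 6 odorant receptor genes, set against each other as 2 sides. Side A held the neurons of Olfr1110 and Olfr1178, and side B held those of Olfr1195, Olfr1197, Olfr1206 and Olfr1211. The receptors were chosen by measured values of these libraries, the levels of S100a5, Pcp4l1 and Calb2: side A was low in S100a5 and Pcp4l1 and high in Calb2. These 3 genes are therefore described and not tested between the sides. A cell barcode was kept with at least 500 detected genes and at most 10% mitochondrial counts. It was called a mature neuron with at least 5 counts of Omp, the olfactory marker protein. It was assigned to its most abundant receptor where that receptor had at least 3 counts and 80% of all odorant receptor counts. This gave 563 neurons of the 6 receptors among 19663 assigned mature neurons and 41911 barcodes in all. Side A had 159 neurons (85 of Olfr1110 and 74 of Olfr1178) and side B had 404 (101 of Olfr1195, 82 of Olfr1197, 88 of Olfr1206 and 133 of Olfr1211).

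The tissue was olfactory epithelium dissected from mice of the strain C57BL/6J, genotype wild type, at an age of 3 months, and the labels name no treatment. Single cells were freed with papain and sequenced from the 5′ end of their transcripts in 4 libraries, 2 of females and 2 of males. Values are counts of unique molecular identifiers (UMIs), which mark single captured RNA molecules. The libraries held 100725429 to 111577458 UMIs, and the neurons of the 6 receptors numbered 125 to 163 per library. Median depth per neuron was 8913 UMIs in side A, 9324.5 in side B and 8515.5 in the neurons of all other receptors. Of the barcode sequences, 895 occurred in more than 1 library, and 12 of the 563 neurons carried such a sequence. Each library is treated as 1 replicate. The labels give a sex and a replicate number and do not say whether a library came from 1 animal, so p-values measure the spread between these libraries.

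Each mature olfactory neuron transcribes mainly 1 odorant receptor gene, and the axons of neurons with the same receptor meet in the same glomeruli of the olfactory bulb. The receptor a neuron carries is known to set, through its signalling, the level of a group of other genes. Among them are adhesion and guidance molecules that sort the axons. S100a5 encodes a calcium-binding protein whose transcript depends on sensory activity in these neurons. Pcp4l1 encodes a small relative of the calmodulin regulator PCP4, and Calb2 encodes the calcium buffer calretinin.

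All 6 receptor genes lie on chromosome 2 (GRCm38, GENCODE M21), and each has its coding sequence in 1 exon. Olfr1110 (ENSMUSG00000075159) spans chr2:87133673-87140300 on the minus strand. Olfr1178 (ENSMUSG00000056995) lies at chr2:88387062-88400799 on the plus strand, 1246.8 kb away. The side B genes follow it within the same stretch. Olfr1195 (ENSMUSG00000075121) is at chr2:88681455-88689187 (minus), Olfr1197 (ENSMUSG00000075119) at chr2:88726903-88732366 (minus), Olfr1206 (ENSMUSG00000062757) at chr2:88863231-88867753 (plus) and Olfr1211 (ENSMUSG00000075112) at chr2:88926876-88938111 (minus). Olfr1178 is thus nearer to the side B genes than to its partner Olfr1110.

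The first 60 coding bases are shown so that the receptors behind each neuron can be told apart. They were read from the GENCODE transcripts and lie at chr2:87136260-87136319 on the minus strand for Olfr1110, chr2:88391249-88391308 on the plus strand for Olfr1178, chr2:88683671-88683730 on the minus strand for Olfr1195, chr2:88729538-88729597 on the minus strand for Olfr1197, chr2:88864607-88864666 on the plus strand for Olfr1206, chr2:88930254-88930313 on the minus strand for Olfr1211. Capitals mark the 3 positions, counted from the first coding base, at which all 4 side B genes share a base that neither side A gene has. The sequences were not aligned for this, so a marked position need not correspond between genes. The marks describe the printed letters only.
Olfr1110: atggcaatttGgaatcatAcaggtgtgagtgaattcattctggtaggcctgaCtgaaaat
Olfr1178: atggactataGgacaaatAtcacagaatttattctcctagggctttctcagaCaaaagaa
Olfr1195: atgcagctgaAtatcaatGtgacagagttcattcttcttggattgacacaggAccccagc
Olfr1197: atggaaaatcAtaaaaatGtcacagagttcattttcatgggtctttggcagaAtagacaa
Olfr1206: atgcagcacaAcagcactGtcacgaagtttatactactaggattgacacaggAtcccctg
Olfr1211: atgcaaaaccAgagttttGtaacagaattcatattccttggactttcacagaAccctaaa
The 2 genes of side A were not close copies. Their coding sequences were 54.25% identical over 999 aligned columns. Identity between a side A and a side B gene lay between 54.18% and 62.93% over the 8 pairs, and within side B between 56.74% and 71.34% over 6 pairs. The most alike pair was Olfr1195 and Olfr1206, at 71.34%, and Olfr1178 was more alike to Olfr1197 of side B (62.93%) than to Olfr1110.

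The assigned receptor took between 95.1% (Olfr1211) and 97.5% (Olfr1206) of all receptor UMIs of its neurons, and the other 5 receptors took at most 0.0415%. Omp was at 8023 ± 879 CPM in side A and 7568 ± 539 in side B (mean ± SD, n = 4 libraries each), where CPM are UMIs per 1000000 non-receptor UMIs of a summed group of neurons. The mature neuron markers Gnal, Adcy3, Cnga2 and Rtp1 were all present on both sides.

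The 3 genes that marked the sides were measured as follows. In side A, S100a5 stood at 611 and 744 CPM in the females 1 and 2, and at 2669 and 945 CPM in the males 1 and 2. In side B it stood at 9845, 9669, 14122 and 10820 CPM in the same order of libraries, which is kept below, so the sides did not overlap. Pcp4l1 was at 119, 128, 413 and 182 CPM in side A and at 2057, 2146, 2260 and 2178 in side B. Calb2 went the other way, with 2095, 2105, 1771 and 2196 CPM in side A and 255, 188, 159 and 130 in side B. In some libraries the Calb2 of a side B receptor came mostly from 1 neuron: 1 held 49 of the 64 Calb2 UMIs of Olfr1195 in male 2, and another held 23 of the 25 of Olfr1197 in male 1. As ratios of the means, side B had 8.95 times the S100a5 and 10.3 times the Pcp4l1 of side A, and side A had 11.1 times the Calb2 of side B.

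**Figure D1:**
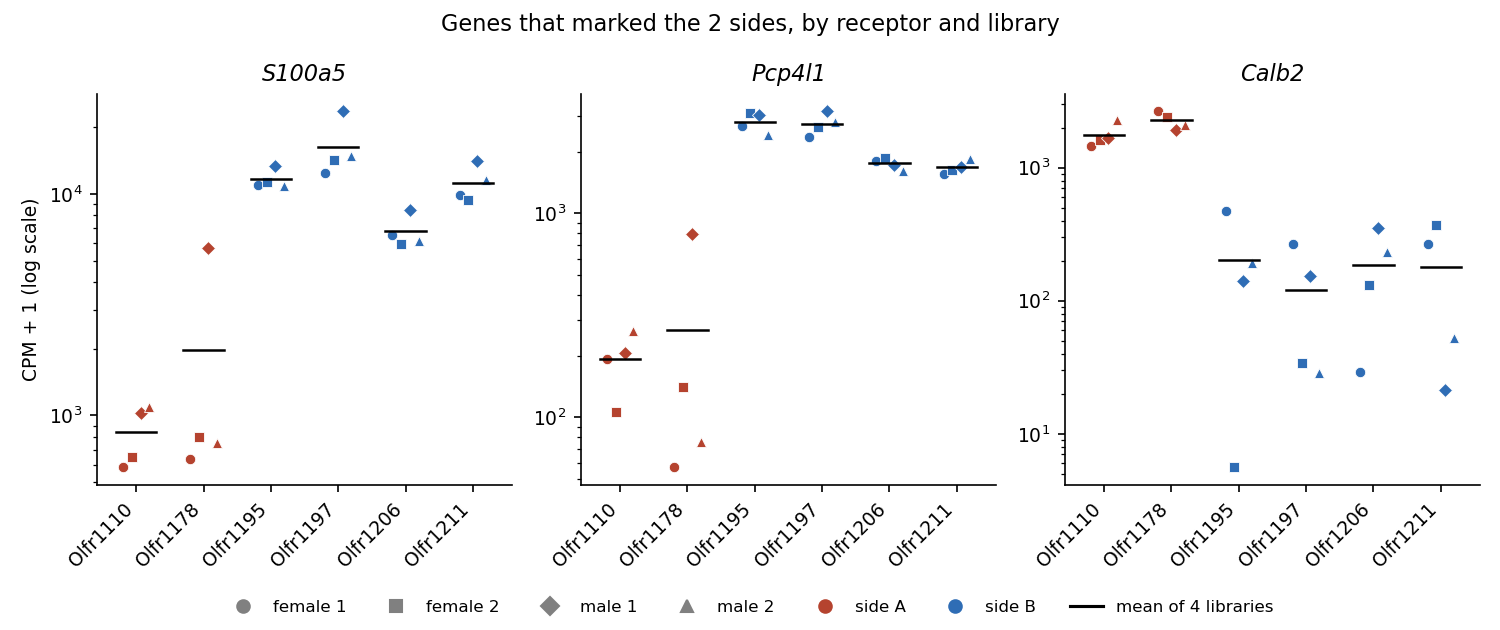
Level of S100a5, Pcp4l1 and Calb2 (CPM + 1, log axis) in the summed neurons of each receptor, with 1 point per library, a bar at the mean of the 4 libraries, and colour for the side. Olfr1178 of male 1 is the side A point that lies nearest to side B for S100a5 (5684 CPM) and Pcp4l1.

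The high value of male 1 came from a single barcode. That barcode was assigned to Olfr1178 with 20 of 24 receptor UMIs (83.3%), close to the limit of 80%, and it alone held 463 of the 802 S100a5 UMIs of side A in male 1. It held 82 UMIs of Pcp4l1 and 2 of Calb2. Without it, male 1 stood at 1173 CPM of S100a5 and 145 of Pcp4l1. Of the 159 neurons of side A it was the only one whose share of S100a5 UMIs reached the median of the side B neurons.

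Near the limits of the rule, values were as follows. The 6 side A neurons with a receptor share between 80 and 85% had 15514 CPM of S100a5, the barcode above among them, and the 3 barcodes between 75 and 80% had 1060. The 4 side A neurons with 3 to 5 receptor UMIs had 590 CPM and the 3 barcodes with 1 or 2 had 10896. With 5 to 9 Omp UMIs, 4 side A neurons had 382 CPM and 13 side B neurons had 3969. With 1 to 4 Omp UMIs, 9 side A barcodes had 158 CPM and 21 side B barcodes had 802. Calb2 stood at 2552 CPM in those 9 side A barcodes and at 1211 in those 21 side B barcodes. The 13 side B neurons with 5 to 9 Omp UMIs had 60.1 CPM of Calb2.

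The levels that chose the receptors can be set beside those of other receptors, as a description. There were 81 receptors with at least 10 neurons in every library, and in the order from the highest S100a5 level Olfr1197 was at place 23, Olfr1195 at 36, Olfr1211 at 41 and Olfr1206 at 55. Olfr1178 and Olfr1110 were at places 74 and 75. The median receptor had 10964 CPM of S100a5, which is the level of Olfr1211, so the side B neurons were rich in S100a5 only relative to side A. For Calb2 the order was reversed, with Olfr1178 at place 2 (2344 CPM), Olfr1110 at place 5 (1752 CPM) and the side B receptors between places 40 and 65. Only 6 of the 75 other receptors had as little S100a5 as Olfr1178 or less, namely Olfr1213, Olfr1507, Olfr195, Olfr291, Olfr374 and Olfr728. All 6 had Calb2 between 855 and 3356 CPM, above the median receptor at 219.

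**Figure D2:**
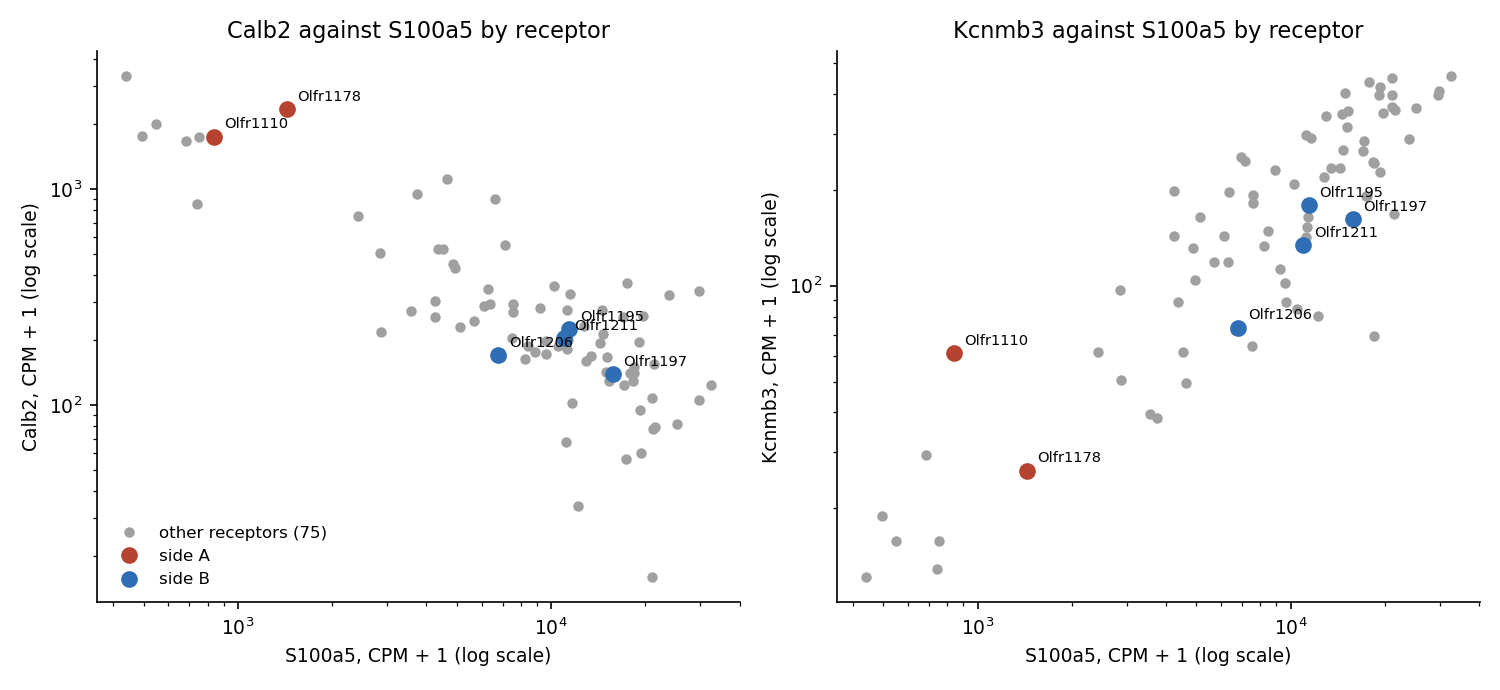
Each point is the summed neurons of 1 receptor, over all 4 libraries, with S100a5 on the x axis and Calb2 (left) or Kcnmb3 (right) on the y axis, all as CPM + 1 on log axes. Side A lies with 6 other receptors at low S100a5 and high Calb2, and the 4 side B receptors lie within the main cloud.

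To show sequence around the pair that moved together, the 250 bases before the start of S100a5 and Pcp4l1 were read from the RefSeq promoter table (GRCm38.p6). They cover chr3:90608272-90608521 on the plus strand for S100a5 and chr1:171196269-171196518 on the minus strand for Pcp4l1. Capitals mark CCAAT, read on either strand.
S100a5: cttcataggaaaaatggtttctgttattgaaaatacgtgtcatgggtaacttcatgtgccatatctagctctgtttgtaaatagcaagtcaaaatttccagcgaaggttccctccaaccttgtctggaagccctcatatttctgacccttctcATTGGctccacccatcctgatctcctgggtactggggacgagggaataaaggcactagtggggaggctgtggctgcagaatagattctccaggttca
Pcp4l1: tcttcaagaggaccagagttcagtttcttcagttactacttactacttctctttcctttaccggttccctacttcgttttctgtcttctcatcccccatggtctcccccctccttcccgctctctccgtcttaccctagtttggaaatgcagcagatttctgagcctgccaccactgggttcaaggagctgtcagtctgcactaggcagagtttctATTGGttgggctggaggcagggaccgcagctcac
Each window held CCAAT once, on the opposite strand (printed as ATTGG), a short word that 33.8% of 32851 such windows hold. Neither window held TGACG, the core of the cyclic AMP response element, which 17.8% of windows hold, or the full TGACGTCA, found in 1.55%. The words were chosen after the sequences were seen. A match is a description of letters and not of a bound site.

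Raw counts were then summed per library and side, the receptor genes were taken out, and the 8 sums were tested with edgeR's quasi-likelihood test, with the library as a block and Benjamini-Hochberg adjustment at 0.05. Of 8322 genes tested, 228 (2.74%) were called: 139 (1.67%) were higher and 89 (1.07%) lower in side A. Leaving aside the 3 genes that marked the sides, 138 were higher and 87 lower. In 106 of the 139 higher genes (76.3%) both side A receptors stood above all 4 side B receptors, and in 64 of the 89 lower genes (71.9%) both stood below; over all genes tested, the receptors were apart in one of these ways in 1563 (18.8%). Calls and receptor order came from the same counts, so these shares are a description and not a test. The 139 and 89 genes include the 3 that marked the sides. The number of calls depended on single libraries. It was 83 without female 1, 426 without female 2, 124 without male 1 and 109 without male 2. DESeq2 called 126 genes. Without Olfr1110 the call count was 84.

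**Figure D3:**
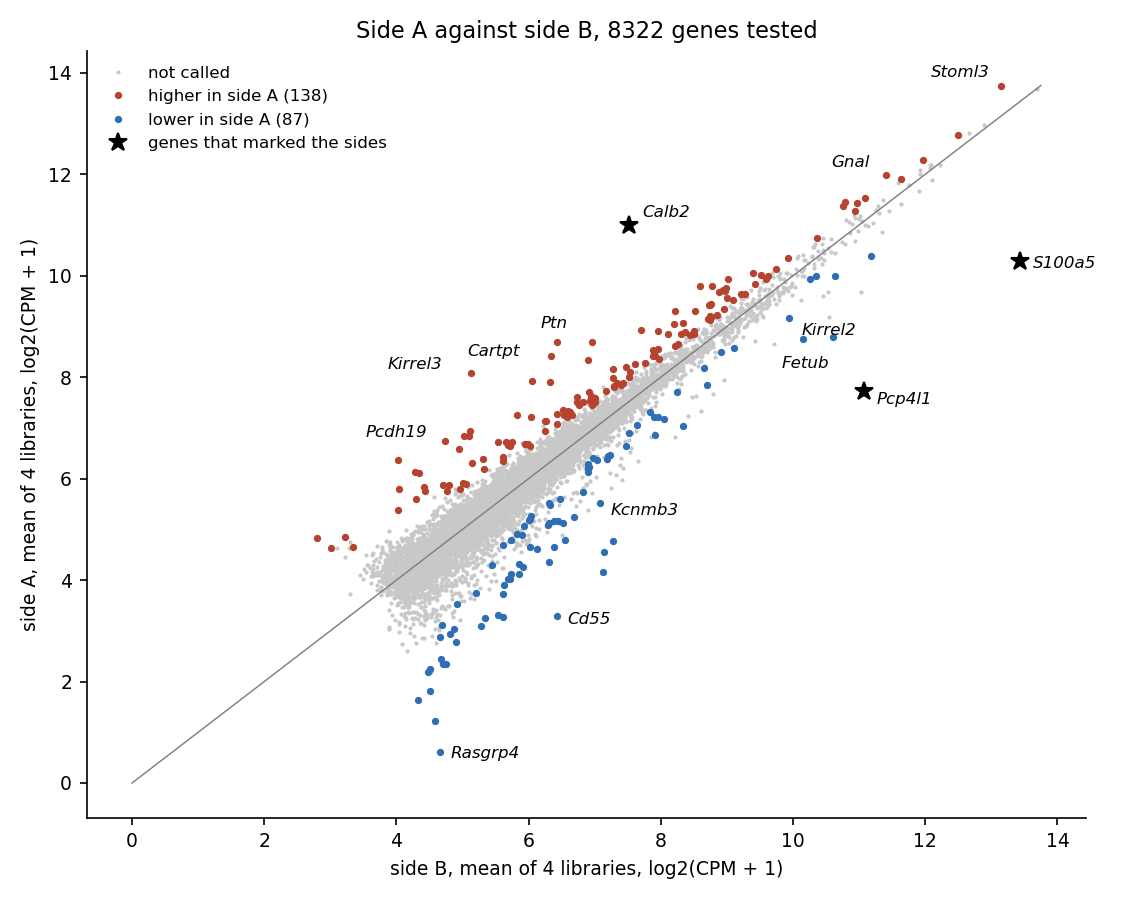
Mean level of each tested gene over 4 libraries in side B (x axis) and side A (y axis), as log2(CPM + 1). Red and blue points are the 138 higher and 87 lower genes called at an adjusted p under 0.05, stars are the 3 genes that marked the sides, and the line marks equal levels.

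Markers of another cell type differed between the libraries of side A. The summed level of 10 markers of sustentacular cells, the supporting cells of the epithelium, was 8694 and 11248 CPM in side A of the females but 752 and 821 CPM in that of the males. In side B it lay between 7377 and 10624 CPM, and in the other neurons between 11957 and 13565, and none of the 10 markers was at 0 on either side. Barcodes with at least 20 sustentacular UMIs made up 3 of 45 and 8 of 46 side A neurons in the females, 1 of 34 in each male, and 40 of 404 in side B. The 14 markers of basal and gland cells, of which 3 were at 0 in side A, Trp63 and Obp2a among them, summed to 345 and 784 CPM in its female libraries and to 93.2 and 58.7 in its male ones. The part of these cells in the results was not tested beyond the setting that follows. Without the barcodes with at least 20 sustentacular UMIs, a setting chosen after seeing the data, 406 genes were called. Of the 139 higher genes 131 were still called and 3 were no longer tested, and of the 89 lower genes 65 were still called and 19 were no longer tested. No call changed sign.

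The 12 named genes with the largest rise in side A were Kirrel3, Entpd2, Ptn, Atp2b4, Pcdh19, Lrrn2, F8, Pcdh10, D930020B18Rik, Efna5, Cyp2j12 and Sik1. Kirrel3, an immunoglobulin cell adhesion molecule that sorts olfactory axons, was at 273, 174, 300 and 326 CPM in side A. In side B it was at 39.2, 27.8, 37.9 and 30.3 CPM. All side A libraries were above all side B libraries, and the log2 fold change was 2.95 ± 0.14 (standard error; edgeR adjusted p = 8.3e-07). The receptors were graded: Kirrel3 was at 403 CPM in Olfr1110, 118 in Olfr1178, 81.6 in Olfr1206 and 44.7 in Olfr1195, but at 7.84 in Olfr1197 and 5.10 in Olfr1211. In female 2 the order turned, with 57.0 CPM in Olfr1178 and 83.3 in Olfr1206, and in the other 3 libraries both side A receptors were above all of side B.

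Ptn, which encodes the secreted growth factor pleiotrophin, showed no such grading within side A. It was at 425, 402, 366 and 453 CPM in side A and at 63.5, 77.7, 100.2 and 99.1 in side B (log2 fold change 2.30 ± 0.14, edgeR adjusted p = 4.1e-06). Olfr1110 and Olfr1178 were at 425 and 398 CPM, and the highest side B receptor, Olfr1195, was at 128. Entpd2, an enzyme that breaks down extracellular ATP, was 2.42 ± 0.20 higher on the log2 scale, with 81.4 ± 10.5 CPM in side A and 15.2 ± 3.98 in side B (SD, n = 4). F8, the gene of coagulation factor VIII, was 1.85 ± 0.16 higher, with 243 ± 69.2 and 65.1 ± 4.56 CPM.

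Protocadherins, which are homophilic adhesion molecules, differed in both directions. Pcdh19 was at 117, 85, 110 and 114 CPM in side A and at 26.7, 24, 25.6 and 26.3 in side B, a log2 difference of 2.04 ± 0.16 (edgeR adjusted p = 4.1e-05). Pcdh10 was at 122, 110, 107 and 117 CPM against 40.0, 37.4, 25.6 and 23.3 (1.83 ± 0.17, edgeR adjusted p = 0.00013). Pcdh8 was lower in side A, at 8.56 CPM against 39.3 (-2.14 ± 0.35, edgeR adjusted p = 0.0061), and Pcdh1, Pcdh7, Pcdh9 and Pcdh17 of the same list were not called. The leucine-rich repeat gene Lrrn2 was 1.91 ± 0.21 higher. Kirrel3, Entpd2, Ptn, Pcdh19, Lrrn2, F8 and Pcdh10 kept their call in all 22 alternative settings.

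The other 5 genes at the head of the list were less firm. Efna5, which encodes the axon guidance ligand ephrin-A5, was at 79.5, 65.9, 83.2 and 42.4 CPM in side A and at 23.52, 12.5, 18.9 and 22.2 in side B (1.81 ± 0.25, edgeR adjusted p = 0.0019), and its call was lost without Olfr1110 (edgeR adjusted p = 0.091). The unnamed transcript D930020B18Rik (1.82 ± 0.22) also lost its call without Olfr1110. Atp2b4, a plasma membrane calcium pump (2.15 ± 0.39), had an adjusted p of 0.088 without female 1 and 0.078 without male 1. Cyp2j12, a cytochrome P450 gene (1.78 ± 0.28), had 0.062 without female 1 and 0.057 without Olfr1110. Sik1, a salt-inducible kinase (1.75 ± 0.40), lost its call when any 1 library was left out, at adjusted p between 0.10 and 0.16, and also without Olfr1195 (0.11) or Olfr1206 (0.070), and was not tested without the barcodes that carried sustentacular UMIs.

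**Figure D4:**
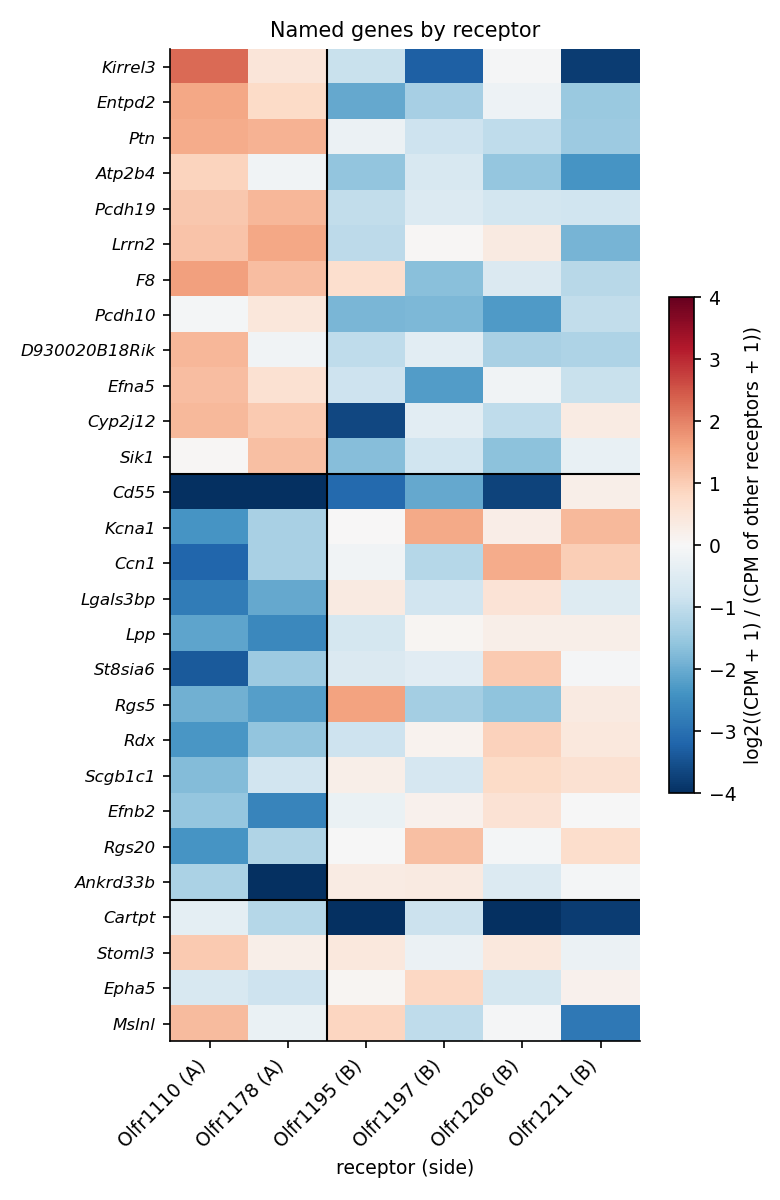
Level of 28 named genes in the neurons of each receptor, over all libraries, as the log2 ratio of CPM + 1 to that of the neurons of all other receptors; red is above and blue below those neurons. From the top, the blocks are 12 genes higher in side A, 12 lower, and 4 called genes whose receptors overlap between the sides.

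Among the genes lower in side A, Cd55 was the firmest. It encodes a surface inhibitor of complement and is known to differ between neurons of different receptors. It stood at 4.97, 10.6, 6.66 and 13 CPM in side A and at 76.1, 118, 82.4 and 64.7 in side B (log2 fold change -3.29 ± 0.27, edgeR adjusted p = 4.5e-05). Most of the side B level came from Olfr1211 at 212 CPM, while Olfr1206 had 12.8, close to the 8.25 and 9.30 CPM of Olfr1110 and Olfr1178. Without the barcodes that carried sustentacular UMIs the difference was -3.56 ± 0.33.

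Rgs20, a regulator of G protein signalling (-2.27 ± 0.46), and Ankrd33b (-2.22 ± 0.39) were also lower and kept their calls without those barcodes. They did not keep them over all libraries: Rgs20 had adjusted p values of 0.11, 0.067 and 0.12 without female 1, male 1 and male 2, and Ankrd33b had 0.059 and 0.063 without female 1 and male 2. Rgs20 was also not called without Olfr1110 (0.23) or with a stricter assignment of receptors (0.065), nor Ankrd33b without Olfr1178 (0.15).

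The other 9 of the 12 genes were not called without those barcodes. Rgs5 was -2.45 ± 0.43 in all neurons and -0.31 ± 0.28 without them (edgeR adjusted p = 0.67). Scgb1c1, a secretoglobin, was at 184, 1252, 156 and 176 CPM in side A and between 1085 and 1817 in side B, and its difference of -2.33 ± 0.39 became -0.32 ± 0.12 (edgeR adjusted p = 0.12). Ccn1, Lgals3bp, Lpp, Kcna1, St8sia6, Rdx and Efnb2 were between -2.95 and -2.30 in all neurons and fell below the filter on low counts without those barcodes, so they have values there but no test. Without them, Kcna1 was still at 1.57 CPM in side A against 21.9 in side B, Lgals3bp at 3.28 against 18.7 and Lpp at 2.53 against 9.48. Ccn1 was at 5.09 CPM in side A against 6.36 in side B, where it had been at 16.7 against 138 with them. St8sia6 (0.733 against 2.39 CPM), Rdx (2.29 against 4.08) and Efnb2 (0.844 against 2.22) were under 5 CPM on both sides without them.

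Each of these 9 genes also lost its call without at least 1 library. Without female 1, the adjusted p was 0.081 for Ccn1, 0.096 for Lgals3bp, 0.25 for Lpp, 0.088 for Kcna1, 0.21 for St8sia6, 0.10 for Rdx and 0.11 for Scgb1c1. Without male 1, it was 0.052 for Lgals3bp, 0.059 for Lpp, 0.077 for St8sia6, 0.073 for Rdx, 0.052 for Scgb1c1 and 0.18 for Efnb2. Without male 2, it was 0.20 for Lpp, 0.063 for Kcna1, 0.12 for St8sia6, 0.092 for Rgs5, 0.083 for Rdx, 0.068 for Scgb1c1 and 0.19 for Efnb2. Without female 2, only Efnb2 of the 9 lost its call (0.057). Without Olfr1110, Lgals3bp (0.12), Lpp (0.22), St8sia6 (0.32) and Efnb2 (0.078) were not called.

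Among the lower genes named by their lists, Kcnmb3, a regulatory subunit of calcium-activated potassium channels, was at 32.3, 29.8, 56.6 and 61.9 CPM in side A and at 139, 139, 148 and 113 in side B (-1.64 ± 0.21, edgeR adjusted p = 0.00094), and it kept its call in all 22 settings. Of 13 tested potassium channel genes and relatives, none was higher and 3 were lower, Kcnmb3 and Kcna1 among them. Of all genes tested, 1.67% were higher and 1.07% lower. The median log2 fold change of the list was -0.13 against -0.02 over all genes.

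Genes known to follow sensory activity in these neurons were tested as a list of 12, of which 3 had marked the sides and 7 passed the filter. Of these 7, 4 were higher in side A (Kirrel3, Efna5, Pcdh10 and Cntn4), 2 were lower (Kirrel2 and Epha5) and Sema7a was not called. Over all genes tested, 1.67% were called as higher and 1.07% as lower. Kirrel2, the partner of Kirrel3 in axon sorting, was at 574, 529, 586 and 606 CPM in side A and at 1148, 1034, 905 and 817 in side B (-0.76 ± 0.10, edgeR adjusted p = 0.0017). The libraries did not overlap, but the receptors did: Olfr1195 at 625 and Olfr1206 at 351 CPM lay near or below the 576 of Olfr1110 and the 562 of Olfr1178, and only Olfr1197 (1688) and Olfr1211 (1353) were high. Epha5, the receptor of ephrin-A ligands, was at 219, 193, 273 and 235 CPM against 409, 342, 464 and 436 (-0.85 ± 0.09, edgeR adjusted p = 0.00029), again with Olfr1206 (229 CPM) at the side A level. Cntn4, an adhesion molecule of the contactin family, was 0.64 ± 0.09 higher in side A. Kirrel2 and Epha5 kept their calls in all 22 settings.

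The wider list of axon guidance and adhesion genes gave 8 higher and 4 lower of 33 tested, and its median log2 fold change was 0.28. Among all genes, 1.67% were called as higher, 1.07% as lower and 2.74% in either direction. Besides those above, Nrp1, Plxna4 and Efna3 were higher and Efnb2 and Pcdh8 lower. None of 12 tested genes of neurexins and their partners, the subject of the series, was called. Over all genes, 1227 had an unadjusted p under 0.05. Clstn1 (-0.37 ± 0.09, edgeR adjusted p = 0.062) and Nlgn3 (-0.81 ± 0.28, adjusted p = 0.17) were called as lower without the barcodes that carried sustentacular UMIs (-0.42 and -1.05).

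Odour transduction genes were higher in side A where they differed. Of 21 tested, 7 were higher and none lower, against 1.67% and 1.07% of all genes. Gnal, the olfactory G protein subunit, was at 3743, 3629, 4447 and 4311 CPM in side A and at 2712, 2614, 2780 and 2690 in side B (0.57 ± 0.06, edgeR adjusted p = 0.00041). Stoml3, a stomatin-like protein of olfactory cilia, was at 13743 ± 1526 CPM against 9086 ± 461 (SD, n = 4), a log2 difference of 0.59 ± 0.05. Cnga4, a subunit of the transduction channel, was 0.68 ± 0.08 higher, and the phosphodiesterase gene Pde4a 0.49 ± 0.08 higher (adjusted p = 0.053 without female 1). Stoml3, Cnga4 and Pde4a were called only with Olfr1110 included: without it their log2 differences were 0.13, 0.18 and 0.10 and none was called, whereas Gnal kept its call. Without the barcodes that carried sustentacular UMIs, Pde1c (-0.28) and Ckb (-0.32) were called as lower in side A.

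Genes of immature neurons were partly higher in side A, although both sides were mature by Omp. Of 17 tested, 5 were higher (Gap43, Stmn2, Dcx, Dpysl3 and Stmn1) and Tubb3 was lower, against 1.67% and 1.07% of all genes. The summed level of the 18 genes was 4031 to 4909 CPM in side A and 3278 to 4170 in side B. Gap43, a growth cone protein, was at 370, 310, 350 and 257 CPM in side A and at 159, 141, 121 and 53.6 in side B (1.47 ± 0.15, edgeR adjusted p = 0.00029). A Gap43 UMI was found in 20.0% of Olfr1110 neurons and 35.1% of Olfr1178 neurons, and in 13.5% to 21.8% of those of the side B receptors. Receptors overlapped within libraries. In female 1, Olfr1110 had 245 CPM and Olfr1195 266, and in female 2, Olfr1110 had 134 and Olfr1211 253. Gap43 kept its call in all 22 settings, among them the one with at least 20 Omp UMIs per neuron. Stmn2, a microtubule regulator (0.68 ± 0.09), lost its call there, at 0.36 and adjusted p = 0.11, and Dpysl3 (0.87 ± 0.17) reversed to -0.17. Dcx (0.68 ± 0.13) had adjusted p values of 0.10, 0.064 and 0.079 without female 1, male 1 and male 2, and Dpysl3 had 0.21, 0.11 and 0.058.

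The other lists are read beside the 2.74% of all genes called in the fit on all neurons. More genes were called without the barcodes that carried sustentacular UMIs, so that share is no background for list counts from that setting. Among calcium-binding proteins other than the 3 that marked the sides, Necab3 was higher (1.35 ± 0.23; adjusted p = 0.094 without female 1, 0.28 without Olfr1178 and 0.056 with DESeq2) and none lower of 15 tested. Of 17 immediate early genes, Egr4 was higher and Klf4 lower, and without the barcodes that carried sustentacular UMIs 6 of 13 were higher (Btg2, Jun, Fosb, Fos, Nr4a1 and Egr1) and Klf2 was lower. Of 20 unfolded protein response genes, Sel1l was higher and Trib3 lower. Dnajb9 (0.34) was also called as higher, and Herpud1 (-0.39) as lower, without the barcodes that carried sustentacular UMIs. S100a13 (-0.68) of the calcium-binding proteins was called as lower in that setting too. Of 20 synapse and vesicle genes, the calcium channel genes Cacna1b (1.18 ± 0.20) and Cacna2d1 (0.52 ± 0.10) were higher. Emx2 (-0.69 ± 0.13) was the only call among 15 regulators of receptor choice. Without the barcodes that carried sustentacular UMIs, Nfia (-0.97) and Ebf1 (-0.32) of the regulators were called as lower beside Emx2, and Syn2 (-0.55) and Slc17a6 (-0.56) of the synapse and vesicle genes were called as lower. Egr4, Klf4, Sel1l, Trib3, Cacna1b, Cacna2d1 and Emx2 each lost their call without female 1, at adjusted p between 0.11 and 0.23. Of these, Klf4, Sel1l, Trib3 and Cacna2d1 also lost it without male 1 and without male 2, Cacna1b without male 1, and Emx2 and Egr4 without male 2, at adjusted p between 0.059 and 0.18. Without Olfr1110, Klf4, Sel1l, Trib3, Cacna1b, Cacna2d1 and Emx2 were not called either (adjusted p from 0.24 to 0.42).

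Cartpt, the precursor of CART peptides, was called with overlapping receptors. Side A stood at 348, 255, 383 and 384 CPM and side B at 68.2, 83.5, 65.7 and 102 (2.09 ± 0.14, edgeR adjusted p = 1.0e-05). Within side B, Olfr1197 had 306 CPM, between Olfr1178 (248) and Olfr1110 (421), while Olfr1195, Olfr1206 and Olfr1211 had 16.2, 29.5 and 38.6. The pooled neurons of all other receptors had 550 ± 76.9 CPM, above both sides. Among the 81 receptors, however, the median was 111 CPM and the highest 1136, with Olfr1110 at place 8, Olfr1197 at 18 and Olfr1178 at 20, and the other side B receptors at places 65 to 78.

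The 2 receptors of side A were next compared with each other. Of 3879 genes tested, 72 (1.86%) were called, 46 higher and 26 lower in Olfr1110, and 26 of the 72 were also among the 228 genes of the comparison between the sides. That comparison called 2.74% of its 8322 genes, a larger set than the 3879 here. Both use the same counts of side A, so the overlap is a description and not a test. The 72 calls became 40 without male 1 and 27 without male 2, and DESeq2 called 14. Nrp1, the semaphorin receptor neuropilin 1, was at 107, 105, 103 and 98.0 CPM in Olfr1110 and at 0, 3.35, 0 and 0 in Olfr1178. The groups were far apart in all 4 libraries (log2 fold change 5.75, edgeR adjusted p = 2.5e-06), and the call of Nrp1 between the sides therefore came from Olfr1110 alone. Necab1, Adam28 and Cadps2 were also higher in Olfr1110 (4.62, 3.01 and 2.98). Olig1, a basic helix-loop-helix factor, was at 154, 147, 132 and 210 CPM in Olfr1178 but at 10.7, 0, 10.3 and 0 in Olfr1110 (-4.67, edgeR adjusted p = 1.6e-06). Kirrel, a further member of the Kirrel family, was lower in Olfr1110 as well (8.25 against 90.3 CPM, -3.37). Rnd2 (-1.87) and Fetub (-1.80) followed, and Rnd2 lost its call without male 1 (adjusted p = 0.21).

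The 4 receptors of side B were compared by an F test. It called 346 of 6127 genes (5.65%), and 78 genes were called both there and between the sides. Between the sides, 2.74% of 8322 genes were called, a larger set than the 6127. Both comparisons use the same counts of side B, so the overlap is a description and not a test. The 346 calls became 185 without female 1 and 214 without female 2, and DESeq2 called 196. As a description, S100a5 ran from 6782 CPM in Olfr1206 to 15749 in Olfr1197 and Pcp4l1 from 1666 in Olfr1211 to 2753 in Olfr1195. The largest F values were those of Mslnl, H2bc21, Olig1, Cidea, Kirrel2 and Tuba4a. Cidea was at 342 CPM in Olfr1195 and 338 in Olfr1206 but at 24.8 in Olfr1197 and 90.3 in Olfr1211. The histone gene H2bc21 was at 274, 653, 879 and 1071 CPM in Olfr1195, Olfr1206, Olfr1197 and Olfr1211.

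Several of these genes followed an order of receptors that crossed the sides. Tuba4a, an alpha-tubulin, was at 325, 337, 365 and 323 CPM in Olfr1110 and at 74.5, 60.3, 9.43 and 7.49 in Olfr1178. In side B, Olfr1195 (224 CPM over all libraries) and Olfr1206 (183) resembled Olfr1110, and Olfr1197 (18.3) and Olfr1211 (8.01) resembled Olfr1178. Mslnl, a gene of the mesothelin family, had 1272, 963 and 510 CPM in Olfr1110, Olfr1195 and Olfr1206 and 442, 259 and 71.4 in Olfr1178, Olfr1197 and Olfr1211. Olig1 was the mirror image, with 5.50, 20.9 and 26.6 CPM in the first group and 158, 238 and 230 in the second. Of the 72 genes called between Olfr1110 and Olfr1178, 40 (55.6%) had Olfr1110, Olfr1195 and Olfr1206 all above or all below the other 3 receptors, 28 above and 12 below, against 14.3% of all genes tested there. The 72 genes were picked for a difference between Olfr1110 and Olfr1178. The grouping asks for that difference too, which by itself raises their share above that of all genes. This grouping was chosen after the values were seen, and the shares are a description.

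**Figure D5:**
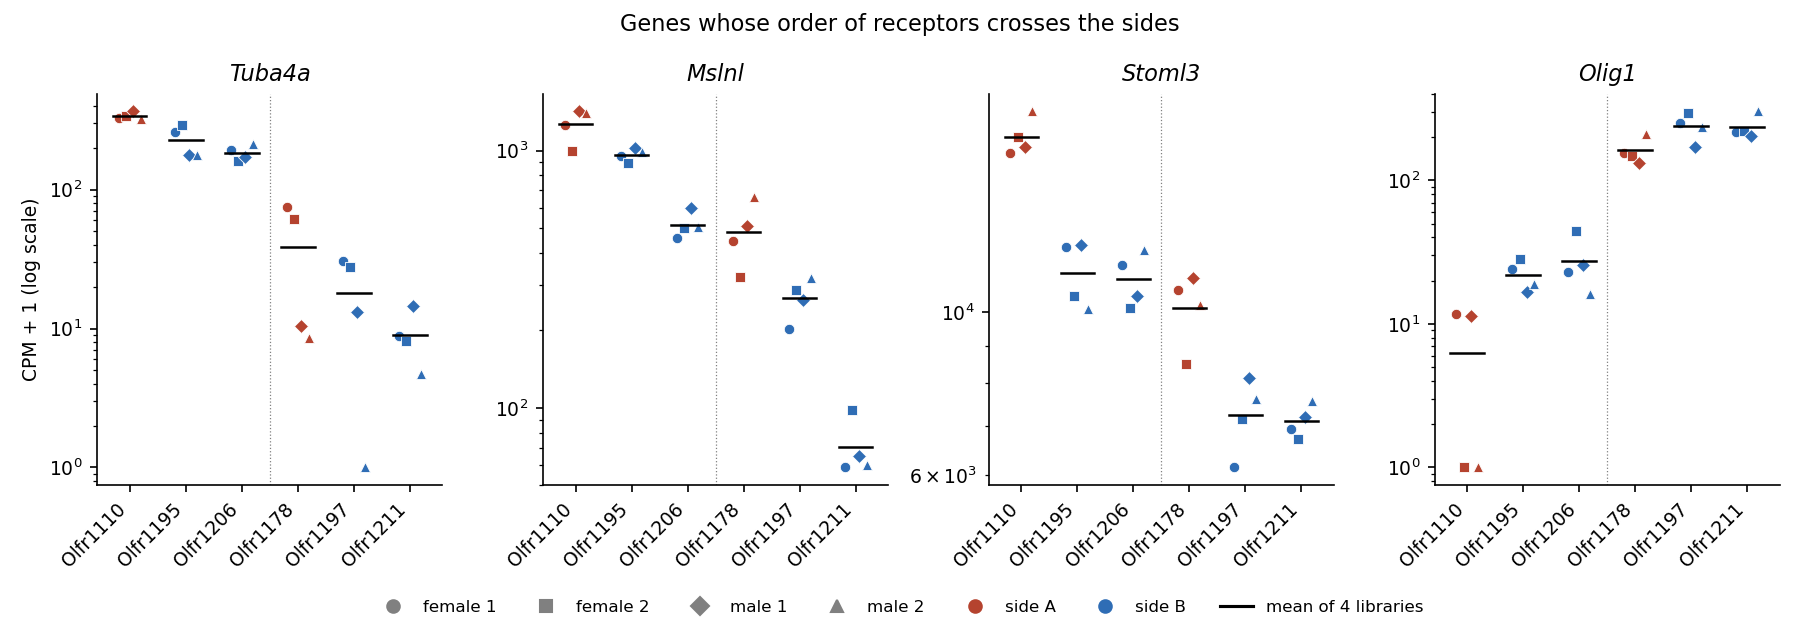
Level of Tuba4a, Mslnl, Stoml3 and Olig1 (CPM + 1, log axis) by receptor, with 1 point per library and a bar at the mean; the dotted line divides Olfr1110, Olfr1195 and Olfr1206 from the others. By their means, Tuba4a, Mslnl and Stoml3 are higher to the left of the line and Olig1 to the right; single libraries overlap for Mslnl and Stoml3.

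Against the 19100 neurons of all other receptors, side A had 435 of 13037 genes called (3.34%) and side B 380 of 13249 (2.87%). These comparisons share the other neurons. S100a5 was -3.47 and Pcp4l1 -3.58 in side A on the log2 scale, and -0.06 and -0.06 in side B. Calb2 was 2.23 in side A and -1.24 in side B. The median of the 81 receptors was 219 CPM of Calb2, and the side B receptors lay between 139 and 224. Kirrel3 was at 1.64 in side A and -1.31 in side B against the other neurons, and Ptn at 1.44 and -0.85. For Cd55 both sides were below the pooled other neurons, at -4.37 and -1.08. The median of the 81 receptors was 21.45 CPM of Cd55, and the highest had 1051. Olfr1211 (212) and Olfr1197 (43.1) of side B were above that median, and Olfr1195 (20.0) and Olfr1206 (12.8) were below it. Olfr1178 (9.30) and Olfr1110 (8.25) of side A were below it as well. Pcdh10 was 0.24 in side A (edgeR adjusted p = 0.41) and -1.58 in side B, so only the value of side B was called. The calls of side A numbered 166 without female 1, 212 without male 1, 282 without male 2 and 707 without female 2. Those of side B numbered 219 without male 2.

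Markers of the dorsal zone of the epithelium were below the pooled level of the other neurons on both sides. Nqo1, an oxidoreductase that marks dorsal neurons, was at 9.25 ± 9.57 CPM in side A, 5.84 ± 2.71 in side B and 238 ± 45.2 in the other neurons (log2 fold changes -4.45 and -5.37). The median of the 81 receptors was 8.77 CPM, with Olfr1110 at place 19 and the other 5 receptors at places 47 to 76. Acsm4, another dorsal marker, was at 19.0 ± 17.3, 4.59 ± 2.97 and 89.5 ± 14.1 CPM, and the median of the 75 other receptors was 5.39. Avp, the vasopressin precursor, was at 0.815 ± 1.63 and 5.12 ± 2.48 CPM against 68.3 ± 23.4, with a median of 2.56 and a highest value of 6185 over the 75. The genes highest in side A beyond Kirrel3 were Fndc1 (1.87; adjusted p = 0.054 without female 1), Dnaic2 (1.51) and Ptprz1 (1.5; 0.094 without female 1 and 0.10 without male 2), and the lowest beside Avp were Rasgrp4 (-5.54), Hbb-bt (-4.90) and Mboat1 (-4.89). Hbb-bt is a haemoglobin gene of red blood cells. It was at 0.832 ± 1.66 CPM in side A, 0.557 ± 1.11 in side B and 20.2 ± 3.00 in the other neurons, with a median of 1.5 over the 75 other receptors. The 13 immune and blood markers summed to 6.66 to 210 CPM in side A, 43.9 to 325 in side B and 161 to 402 in the other neurons, and their part in this value was not tested. Rasgrp4, an activator of Ras, was at 86.3 CPM in Olfr1197, 17.1 in Olfr1195 and 11.7 in Olfr1211, but at 0.984 in Olfr1206, 1.38 in Olfr1110 and 0 in Olfr1178. In side B, Cygb (1.25), Cpn1 (1.16), Trib3 (1.16) and Mdga2 (1.04) were above the other neurons, and Cpn1 was also higher in side A (1.26).

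Over the 75 receptors outside both sides, several of the genes called between the sides varied with S100a5. Taking S100a5 from the summed females and the other gene from the summed males, so that no library is shared, the Pearson correlation of log2 CPM over these 75 receptors was 0.94 for S100a5 itself, 0.89 for Pcp4l1, 0.85 for Kcnmb3, 0.77 for Epha5, 0.74 for Ankrd33b and 0.72 for Kirrel2, all lower in side A. It was -0.72 for Calb2, -0.71 for Efna5, -0.70 for Entpd2 and -0.69 for Lrrn2, all higher in side A. Ptn (-0.23), Pcdh19 (-0.22), Pcdh10 (-0.13) and Cd55 (-0.10) varied little with S100a5. The receptors share the 4 libraries and differ in number of neurons and depth, so these values are descriptions with no test.

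The difference between the sides was also compared between the sexes. With 2 libraries of each sex, 172 of 8994 genes (1.91%) had an interaction of side with sex, 168 of them with a lower value of side A against side B in males. In those libraries sustentacular markers in side A were at 752 and 821 CPM, against 8694 and 11248 in females. Without the barcodes that carried sustentacular UMIs, 4 genes were called: Pcp4l1 (1.66), S100a5 (0.97), Mfge8 (1.96) and Marcksl1 (1.53). The S100a5 and Pcp4l1 values include the single barcode of male 1 described above, without which side A of the males stood at 1173 and 945 CPM of S100a5 against 611 and 744 in the females. Pcp4l1 then stood at 145 and 182 CPM in the males against 119 and 128 in the females. Both genes marked the sides, so their interaction values are a description and are not read as a test. DESeq2 called 43 genes, and 104 were called without female 2.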

How the data were processed

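Counts of UMIs per gene and barcode were used as deposited, from filtered matrices of 22399 genes. They were made with Cell Ranger, version 6.0.2 per the file headers and 5.0.1 per the submitters' processing notes, on mm10 per those notes. The receptors and gene lists were chosen with earlier results of these data known.

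Counts of assigned neurons were summed per library and group without 1505 receptor genes, and the 8 sums of 2 sides (300444 to 1275401 UMIs) were fitted with edgeR 4.0.16 (quasi-likelihood test, TMM, filterByExpr, library as a block). Adjusted p-values are Benjamini-Hochberg over all genes tested, and CPM are per 1000000 non-receptor UMIs of a sum. A standard error is the log2 fold change divided by the square root of F. The 2 sides of a library come from the same dissociated tissue, which pairs them. Deviations from the side means correlated between the sides of a library at 0.152, 0.122, -0.0188 and 0.144.

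Named genes were called, moved 1 way in 4 of 4 libraries, had both side A receptors beyond all of side B and at least 20 CPM on the higher side: the 12 with the largest change in each direction, 4 whose receptors overlapped, and up to 4 per list. In the other comparisons, 4 per direction were named, and 6 by F among the side B receptors. Genes named only as members of a list's count, Cntn4, Clstn1 and Nlgn3, and all genes given for the order that crossed the sides, were added after their values were seen. Results of some genes are not reported here.

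On simulated counts for the comparison of the sides (8322 genes), 74% of 2-fold and 92% of 4-fold changes were recovered, and 3.49% of calls were false. Doublets were kept, and leaving out those that a nearest-neighbour score marked (7.73% to 8.18% of barcodes) was an alternative, as were DESeq2 1.42.0, other scalings and filters, and leaving out libraries or receptors. Coding sequences were aligned with Biopython 1.88.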

Additional observations from a re-analysis of the deposited data

Results flagged for a closer look

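Among 62 groups of 4 libraries looked at, 5 had 1 library far from the other 3, where about 1 in 20 would be flagged by chance. In side A of female 2, Sik1 stood at 36.1 CPM (19.6 to 20.0 in the others), Ccn1 at 59.5 CPM (0 to 7.46) and Scgb1c1 at 1252 CPM (156 to 184). That library held 8 of the 13 side A barcodes with at least 20 sustentacular UMIs. Without them, Sik1 stood at 35.2 CPM there (17.0 to 23.0 in the others), Ccn1 at 11.7 CPM (0 to 8.61) and Scgb1c1 at 214 CPM (138 to 180). In side B of female 2, Stoml3 stood at 8404 CPM (9214 to 9374). In side A of male 1, S100a5 stood at 2669 CPM (611 to 945), and at 1173 CPM without 1 barcode.

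The difference between the sides differed between females and males, by edgeR's interaction term, for 172 genes. Among the named genes these were Ccn1 (-7.58 on the log2 scale, males minus females), Scgb1c1 (-2.10), S100a5 (0.89) and Pcp4l1 (1.11). S100a5 and Pcp4l1 marked the sides, so their values are a description, and they include the single barcode of male 1. Without the barcodes that carried sustentacular UMIs 4 genes were called.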

How the results depend on the processing

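Of the alternatives run for single named genes, 1161 kept direction and call, 158 lost the call and 3 reversed. Dpysl3 was -0.17 with at least 20 Omp UMIs, and Olig1 was 0.27 without Olfr1110 and 0.019 without Olfr1211. The cause of these changes was not tested.

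For side A against side B, 228 genes became 555 with no filter on low counts, 126 with DESeq2, 406 without barcodes that carried sustentacular UMIs, 84 without Olfr1110, 138 with a stricter assignment of receptors and 353 with the receptors weighted equally. Leaving out 1 library gave 83 to 426. For Olfr1110 against Olfr1178, 72 became 111 with no filter, 14 with DESeq2 and 117 without the sustentacular barcodes, and 27 to 98 when a library was left out. Among the side B receptors, 346 became 817 with no filter, 196 with DESeq2 and 185 to 308 without 1 library. Against the other receptors, leaving out a library gave 166 to 707 for side A (435) and 219 to 348 for side B (380), and side B had 781 with doublets left out. For the interaction with sex, 172 became 43 with DESeq2, 74 with doublets left out, 4 without the sustentacular barcodes and 104 to 233 without 1 library.

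Without the replicate block, which pairs the sums of a library, side A against side B had 224 calls, of which 198 were shared, and side B against the other receptors had 241. Of the named genes, Dpysl3, Rgs5, Scgb1c1 and Rnd2 lost their call without it (adjusted p = 0.14, 0.13, 0.077 and 0.17). The sustentacular setting, the fit with no scaling, the doublet setting outside the comparison of the sides, and the libraries left out of the interaction were chosen after seeing the data. Side A had 34 to 46 neurons per library, so genes under the count filter were not tested, and an uncalled gene is not shown to be equal.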
